A study of Homo sapiens with 9 samples.

Results

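The messages of 10 cytoskeletal genes were followed between input RNA and the RNA bound by PABPN, the nuclear poly(A) binding protein, or by PABPC, its cytoplasmic counterpart. They were the cytoplasmic actins ACTB and ACTG1, the alpha tubulins TUBA1A, TUBA1B and TUBA1C, the beta tubulins TUBB, TUBB4B, TUBB2A and TUBB6, and the gamma tubulin TUBG1. Members were taken by gene symbol, and all 10 were found once in each table, among 51111 genes for PABPN and 51268 for PABPC. All 10 passed the filter on low values, a mean of more than 50 normalised reads (baseMean), which 14581 genes passed in both tables.

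HEK293T cells, a human embryonic kidney line, were wild type in all 9 libraries and were crosslinked with 0.1% formaldehyde for 10 min. The groups were input RNA of the total lysate without immunoprecipitation, RNA immunoprecipitation (RIP) with an antibody to PABPN, and RIP with an antibody to PABPC, with 3 biological replicates each. Ribosomal RNA was depleted and single-end reads of 75 nt were sequenced. Both RIPs were compared with the same 3 input libraries, and the cells came from 1 line grown without any other treatment.

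PABPN binds poly(A) tails in the nucleus, where it takes part in tail synthesis, and PABPC binds them in the cytoplasm, where it takes part in translation and in control of mRNA decay. Actin polymerises into filaments, and alpha and beta tubulin form the dimers of which microtubules are built. Tubulin mRNA is autoregulated during translation: when free dimers are in excess, the factor TTC5 recognises the start of the nascent tubulin chain on the ribosome, SCAPER links it to the CCR4-NOT deadenylase, and the mRNA is degraded. The first codons of a tubulin message therefore carry the signal that this pathway reads.

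These first codons are shown because they set the tubulins that the pathway reads apart from the actins and from gamma tubulin. Each line gives the first 30 coding bases of the canonical transcript in GENCODE release 44 on hg38, with the first 4 codons in capitals.
TUBA1A: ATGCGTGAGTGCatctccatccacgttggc
TUBA1B: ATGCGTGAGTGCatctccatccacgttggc
TUBA1C: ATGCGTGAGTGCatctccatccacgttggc
TUBB: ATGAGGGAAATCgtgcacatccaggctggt
TUBB4B: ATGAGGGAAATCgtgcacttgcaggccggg
TUBB2A: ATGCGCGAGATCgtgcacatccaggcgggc
TUBB6: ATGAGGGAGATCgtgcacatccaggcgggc
TUBG1: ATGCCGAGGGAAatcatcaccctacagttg
ACTB: ATGGATGATGATatcgccgcgctcgtcgtc
ACTG1: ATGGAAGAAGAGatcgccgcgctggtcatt

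The 3 alpha tubulins had the same 30 bases. TUBB and TUBB4B had the same first 12 bases, and TUBB6 differed from both of them at 1 of the 12. A start of the form ATGNGNGAN, read on the coding strand only, was found in all 7 alpha and beta tubulins and not in TUBG1, ACTB or ACTG1. It was found in 372 of 19580 canonical coding transcripts that start with ATG (1.9%). Such a match describes the letters and is not a measurement of binding.

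ACTB lies at chr7:5527148-5530601 on the minus strand and ACTG1 at chr17:81509971-81512799 on the minus strand, with 6 exons each. TUBA1A (chr12:49184795-49189080) and TUBA1B (chr12:49127782-49131395) lie on the minus strand and TUBA1C (chr12:49265082-49274600) on the plus strand, with 4 exons each. In all 3 alpha tubulins the first intron falls directly after the start codon, since the first coding exon holds 3 coding bases. TUBB (chr6:30720352-30725422), TUBB4B (chr9:137241287-137243707) and TUBB6 (chr18:12308241-12326616) lie on the plus strand and TUBB2A (chr6:3153666-3157544) on the minus strand, each with 4 exons and 57 coding bases in the first coding exon. TUBG1 (chr17:42609683-42615238, plus strand) has 11 exons. The introns of TUBB6 sum to 16497 bases, against 858 in TUBB4B, 910 in ACTG1 and 6696 in TUBA1C, the next highest member. Reads in introns and exons were counted together, so each value below covers spliced and unspliced RNA.

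Some reads of these genes cannot be told from those of a relative. Coding sequences of TUBA1A and TUBA1B were identical at 97.2% of aligned bases, those of TUBA1B and TUBA1C at 96.8%, and those of ACTB and ACTG1 at 91.3%. The beta tubulins were 80.9% to 87.3% identical among the 4 members. Of the 75-base windows of the canonical transcript, 48.4% in TUBA1B and 31.5% in TUBA1A had an exact copy elsewhere in the genome or in transcripts of other genes, chiefly in the other alpha tubulins. The share was 59.5% in TUBB2A, chiefly in TUBB2B, 20.4% in TUBG1, all of it in TUBG2, 18.0% in TUBA1C, 10.5% in TUBB, 5.64% in TUBB4B, 5.29% in ACTB and 0 in ACTG1 and TUBB6. The levels of TUBA1A, TUBA1B, TUBA1C, TUBB2A and TUBG1 are thus less certain than the others, and how reads with several matches were treated is not given in the sources used here.

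The deposited tables give 1 mean per gene over 6 libraries, and the reads of each library were worked out from the digits of those means. The recovered reads summed to 35785884 to 47194535 per library. Values per library are given below as RPM, reads scaled to a common total of recovered reads, always in the order of falling size factor within a group. This order carries no replicate number, and the number of each library is not known here. For ACTB, ACTG1, TUBB and TUBA1B several sets of reads gave the same means, so their values per library are those of the set nearest to the deposited fold changes, which is least certain for the actins, while their group means moved little between sets. The cell line markers KRT8, KRT18 and VIM were measured in input at 14.5, 36.2 and 343 RPM, and none of the blood and liver markers PTPRC, HBB, HBA1, ALB and APOA1 passed the filter. Of the muscle markers, ACTA1 passed it at 1.99 RPM in input, and MYH2 and DES did not.

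The actin and tubulin messages were poor in PABPN-bound RNA and rich in PABPC-bound RNA. By the cut-offs of the study (log2 fold change beyond 0.5, adjusted p of at most 0.01 and baseMean above 50), 9 of the 10 messages were depleted from the PABPN RIP, against 14.6% of the 15526 genes tested, and none was enriched, against 17.5%. All 10 were enriched in the PABPC RIP, against 38.4% of 14843 genes, and none was depleted, against 32.4%. The exception with PABPN was TUBB6. The median log2 fold change of the members was -1.85 with PABPN, against -0.041 over all genes tested, and 1.19 with PABPC, against 0.14. Together the 10 messages took 0.369% ± 0.0485 of recovered reads in input, 0.102% ± 0.0145 in the PABPN RIP and 0.821% ± 0.0448 in the PABPC RIP (SD, n = 3). These SDs rest on the nearest sets of reads of ACTB, ACTG1, TUBB and TUBA1B and are less certain than the means. Since a RIP gives relative amounts, fewer bound molecules of a message and more of all others cannot be told apart.

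**Figure D1:**
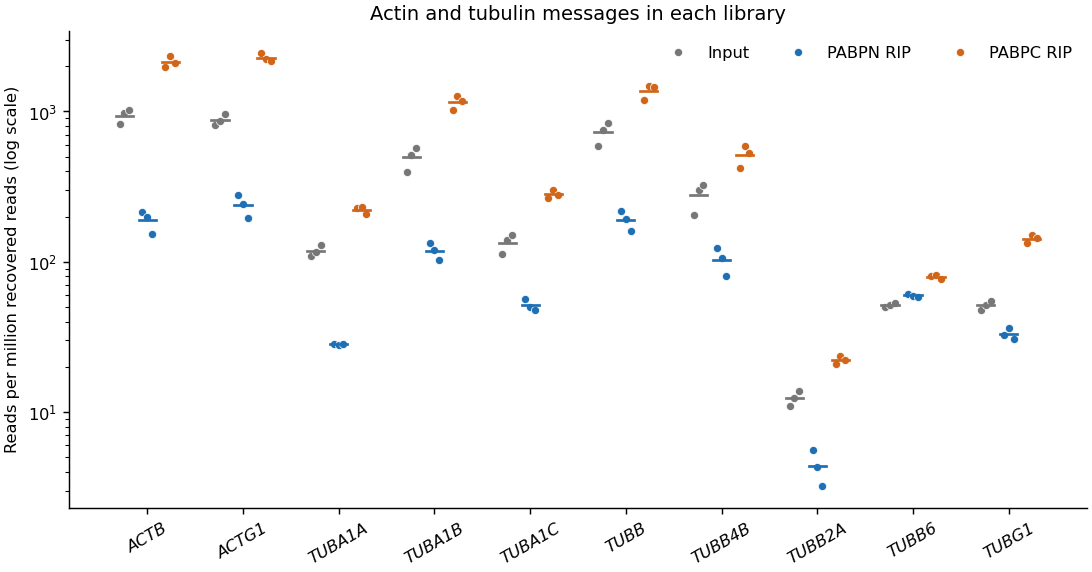
RPM, scaled to the recovered reads (log scale), of the 10 messages in each of the 9 libraries, grey for input, blue for PABPN RIP and orange for PABPC RIP, with a bar at the mean of 3. In 9 messages the blue points lie below and the orange points above all grey points, those of ACTB, ACTG1, TUBB and TUBA1B being from the nearest set of reads, while in TUBB6 the blue points lie between 58.6 and 61.3, above the input points of 50.3 to 53.5.

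ACTB encodes beta-actin, the main actin of non-muscle cells together with gamma-actin. It was measured at 823, 970 and 1024 RPM in input, at 215, 198 and 153 RPM in the PABPN RIP, and at 1975, 2327 and 2116 RPM in the PABPC RIP. Over all 1707 sets of reads that met the tolerance, the mean lay between 933 and 946 RPM in input, between 187 and 193 RPM with PABPN, and between 2103 and 2200 RPM with PABPC. The PABPN libraries were below every input library in all 1707 sets, and the PABPC libraries above every input library in 1595 of them. Its log2 fold change over input was -2.47 (SE 0.173, adjusted p = 3.11e-44 by the authors' DESeq2 Wald test) with PABPN, a level 5.56-fold lower, and 1.38 (SE 0.158, adjusted p = 1.40e-17) with PABPC, a level 2.60-fold higher. ACTB had the 80th lowest fold change with PABPN of the 15526 genes tested.

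ACTG1 encodes gamma-actin. Its values were 815, 861 and 958 RPM in input, 278, 242 and 196 RPM with PABPN, and 2452, 2234 and 2156 RPM with PABPC, again for the nearest set of reads. Over all 1977 sets that met the tolerance, the means lay between 873 and 884, between 236 and 244, and between 2241 and 2322 RPM, and the groups did not overlap in any of them. The log2 fold changes were -2.04 (SE 0.165, adjusted p = 4.75e-33 by DESeq2) and 1.56 (SE 0.128, adjusted p = 2.20e-33). The fold changes of the 2 actins differed by -0.44 (SE 0.239, adjusted p = 0.142 by a normal test of the difference over 90 pairs) with PABPN and by -0.18 (SE 0.203, adjusted p = 0.49) with PABPC, so no difference between them passed the threshold.

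TUBA1B is the alpha tubulin with the highest level here. It was measured at 398, 517 and 575 RPM in input, at 133, 120 and 102 RPM with PABPN, and at 1026, 1260 and 1170 RPM with PABPC. TUBA1A stood at 108, 116 and 129 RPM in input, 28.3, 28.1 and 28.3 RPM with PABPN, and 228, 231 and 208 RPM with PABPC. TUBA1C stood at 112, 139 and 151 RPM in input, 56.3, 50.2 and 47.6 RPM with PABPN, and 267, 302 and 279 RPM with PABPC. For all 3 alpha tubulins the PABPN libraries were below, and the PABPC libraries above, every input library. TUBA1B is given by the set of reads nearest to the fold changes, and of the 41 sets within the tolerance 41 had all PABPN libraries below input and 36 all PABPC libraries above it, with means of 494 to 499 RPM in input, 118 to 121 with PABPN and 1134 to 1179 with PABPC.

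With PABPN the log2 fold changes were -2.23 (SE 0.183) for TUBA1B, -2.22 (SE 0.131) for TUBA1A and -1.55 (SE 0.163) for TUBA1C. TUBA1C was less depleted than TUBA1A, with a TUBA1A minus TUBA1C value of -0.68 (SE 0.209, adjusted p = 0.0053 by the normal test over 90 pairs), whereas the like value of TUBA1B minus TUBA1C, -0.68 (SE 0.245), did not pass at adjusted p = 0.0175. With PABPC the values were 1.40 (SE 0.187), 1.10 (SE 0.137) and 1.27 (SE 0.167), and no pair passed.

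TUBB, the most abundant beta tubulin in these cells, was measured at 592, 759 and 836 RPM in input, at 218, 192 and 161 RPM with PABPN, and at 1189, 1486 and 1453 RPM with PABPC. TUBB4B stood at 205, 301 and 324 RPM in input, 123, 106 and 80.0 RPM with PABPN, and 423, 589 and 532 RPM with PABPC. TUBB2A stood at 11.0, 12.4 and 13.7 RPM in input, 5.55, 4.31 and 3.20 RPM with PABPN, and 21.0, 23.5 and 22.2 RPM with PABPC. The 3 groups of libraries stayed apart in each of these genes, though TUBB4B varied 1.58-fold among the input libraries alone. For TUBB this holds for the nearest set of reads: of the 529 sets within the tolerance, 529 had all PABPN libraries below input but 282 had all PABPC libraries above it, while the means lay between 724 and 734 RPM in input, 188 and 194 with PABPN, and 1352 and 1418 with PABPC. The log2 fold changes with PABPN were -2.10 (SE 0.183) for TUBB, -1.59 (SE 0.217) for TUBB4B and -1.66 (SE 0.218) for TUBB2A. With PABPC they were 1.11 (SE 0.187), 1.08 (SE 0.216) and 1.04 (SE 0.163), and no pair of these 3 passed the threshold in either RIP.

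TUBB6, a beta tubulin that cells make at lower levels, did not share the depletion from PABPN. It was measured at 50.3, 51.3 and 53.5 RPM in input, at 61.3, 59.2 and 58.6 RPM with PABPN, and at 81.0, 81.3 and 76.5 RPM with PABPC. The PABPN libraries were thus above every input library on the RPM scale. In the authors' scaling by size factors the log2 fold change was 0.05 (SE 0.114, 95% interval -0.18 to 0.27, adjusted p = 0.78 by DESeq2). The difference between the scales is the same for every gene: the log2 ratio of RPM lay above the deposited fold change by a median of 0.157 with PABPN and below it by 0.194 with PABPC. With PABPC TUBB6 was enriched by 0.81 (SE 0.118, adjusted p = 2.50e-11 by DESeq2), the lowest value of the 10 members. TUBB6 differed from each of the other 9 messages with PABPN, by 0.83 (SE 0.181, adjusted p = 2.68e-05 by the normal test over 90 pairs) from TUBG1 and the values of the other 8 minus that of TUBB6 ran from -2.52 to -1.59.

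TUBG1 encodes the gamma tubulin from which microtubules are nucleated at centrosomes. It was measured at 47.7, 51.2 and 54.8 RPM in input, at 32.5, 36.3 and 30.8 RPM with PABPN, and at 133, 150 and 143 RPM with PABPC. It was the least depleted of the 9 messages called with PABPN, at -0.78 (SE 0.140, adjusted p = 1.93e-07 by DESeq2), and the most enriched of the 10 with PABPC, at 1.66 (SE 0.143). Its fold change with PABPN was higher than that of each actin and of each tubulin other than TUBB6, with adjusted p from 4.34e-13 to 0.0075 by the normal test over 90 pairs.

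**Figure D2:**
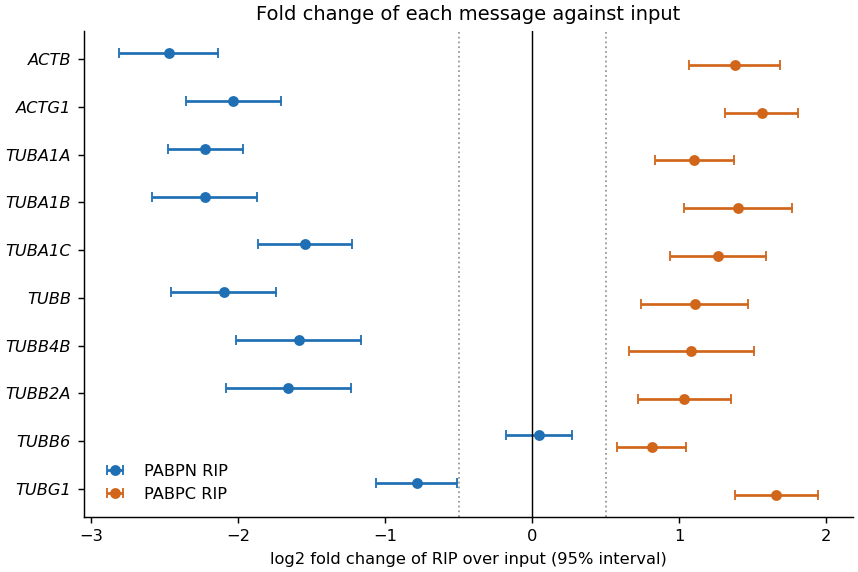
Log2 fold change of RIP over input for each message with its 95% interval from the deposited standard error, PABPN in blue and PABPC in orange, with dotted lines at the cut-offs of -0.5 and 0.5. All orange intervals lie above 0.5, and the blue intervals lie below -0.5 except in TUBB6, whose interval spans 0.

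Of the 45 pairs of messages, 20 differed in fold change with PABPN, and TUBB6 or TUBG1 was in 17 of them. With PABPC 2 pairs differed, both with TUBB6. These tests add the errors of both genes as if independent, although the genes were measured in the same libraries, and ratios within libraries can be tighter: TUBA1B with TUBA1C did not pass with PABPN, nor TUBG1 with TUBB with PABPC, although in both cases the ratios within libraries did not overlap between RIP and input.

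The change in proportion can be read within each library, where scaling plays no part, with TUBB and TUBA1B taken at the nearest set of reads. TUBB6 gave 0.0722 ± 0.0112 reads per read of TUBB in input (SD, n = 3), 0.318 ± 0.0418 in the PABPN RIP and 0.0585 ± 0.0084 in the PABPC RIP. TUBG1 gave 0.0712 ± 0.0081, 0.176 ± 0.0235 and 0.104 ± 0.00709 reads per read of TUBB. TUBA1C gave 0.271 ± 0.00994 reads per read of TUBA1B in input, 0.435 ± 0.0261 with PABPN and 0.246 ± 0.0121 with PABPC. In each of these 3 ratios all 3 PABPN libraries lay above all 3 input libraries, and the replicate spread was small beside the shift. An exact permutation test on 3 against 3 libraries cannot go below p = 0.1, so the ratios are given as a description.

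**Figure D3:**
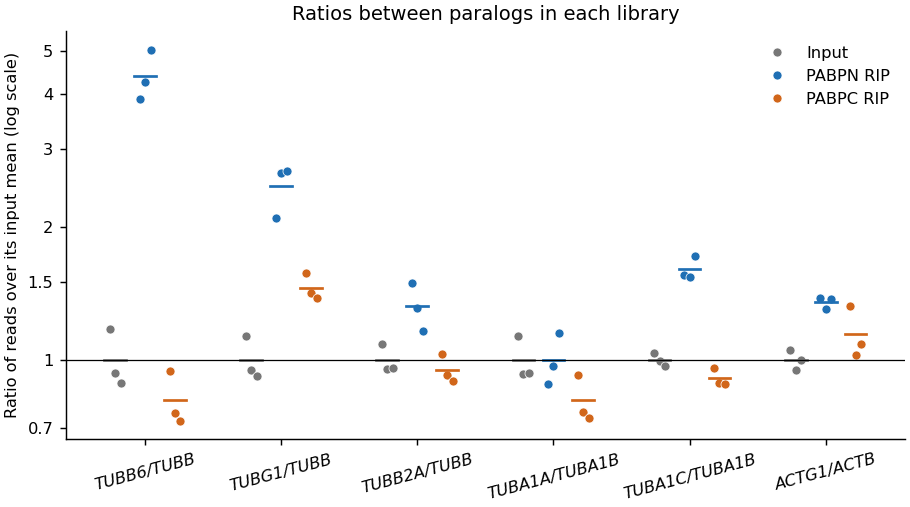
Ratio of the reads of 1 gene to those of a relative in each library, divided by the mean of that ratio in input (log scale), with a bar at the mean of 3. The mean of TUBB6 over TUBB was 0.318 with PABPN against 0.0722 in input and that of TUBA1A over TUBA1B 0.241 against 0.240, while the points of ACTG1 over ACTB rest on the nearest sets of reads and are uncertain.

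Levels can be set against each other only per length. The deposited length equalled that of the merged exons in TUBA1B, TUBA1C, TUBB4B and TUBB6. In the other members it was shorter, with 2408 against 4316 bases in TUBG1 and 3178 against 3823 in TUBA1A. The order that follows, that of TUBG1 and TUBB6 included, rests on the deposited length and was not tested with merged exons. Reads in introns were counted too, so these values include unspliced RNA, whose part in each was not tested. Per kb of the deposited length, input RPM was 301 ± 25.1 for ACTG1, 275 ± 30.4 for ACTB, 227 ± 38.8 for TUBB, 139 ± 25.3 for TUBA1B and 136 ± 31.1 for TUBB4B (SD, n = 3). It was 37.1 ± 3.35 for TUBA1A, 30.1 ± 4.46 for TUBA1C, 21.3 ± 1.48 for TUBG1, 13.1 ± 0.421 for TUBB6 and 7.07 ± 0.778 for TUBB2A. The SDs of ACTB, ACTG1, TUBB and TUBA1B are those of the nearest set of reads and are less certain than their means. Among the 9 neighbouring pairs in this order, the ranges over libraries (for ACTB, ACTG1, TUBB and TUBA1B those of the nearest set of reads) overlapped between ACTG1 and ACTB, between ACTB and TUBB, and between TUBA1B and TUBB4B. In the PABPN RIP TUBB6, ninth of 10 per kb in input, ranked sixth, at 15.1 ± 0.361, above TUBA1C at 11.5 ± 0.996 and TUBA1A at 8.88 ± 0.0281, while its range overlapped that of TUBG1 at 13.8 ± 1.17. There the ranges also overlapped between ACTG1 and TUBB, TUBB and ACTB, and ACTB and TUBB4B. In the PABPC RIP it was again ninth, at 20.2 ± 0.684.

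The RIPs were compared with each other through the difference of the fold changes, PABPN minus PABPC. All 10 messages were higher with PABPC, against 33.4% of the 14581 genes, and none was higher with PABPN, against 36.1%, and the median difference was -3.01, against 0.068 over all genes. The largest difference was that of ACTB at -3.85 (SE 0.234, adjusted p = 2.56e-59 by the normal test over all genes), a 14.5-fold gap between the RIPs and the 19th lowest of 14581 genes. It was -3.63 for TUBA1B, -3.60 for ACTG1, -3.33 for TUBA1A, -3.21 for TUBB, -2.81 for TUBA1C, -2.70 for TUBB2A, -2.67 for TUBB4B and -2.45 for TUBG1. TUBB6 had the smallest, -0.76 (SE 0.165, adjusted p = 6.45e-06). Library by library, with the nearest sets of reads, 9 of the 10 messages were lower in every PABPN library than in every input library, against 24.7% of genes, and 10 of 10 were higher in every PABPC library than in every input library, against 39.8%. Every PABPN library was below every PABPC library in all 10, against 32.8% of genes. The full order of PABPN below input below PABPC, with no overlap, held for 9 messages and for 12.8% of genes.

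**Figure D4:**
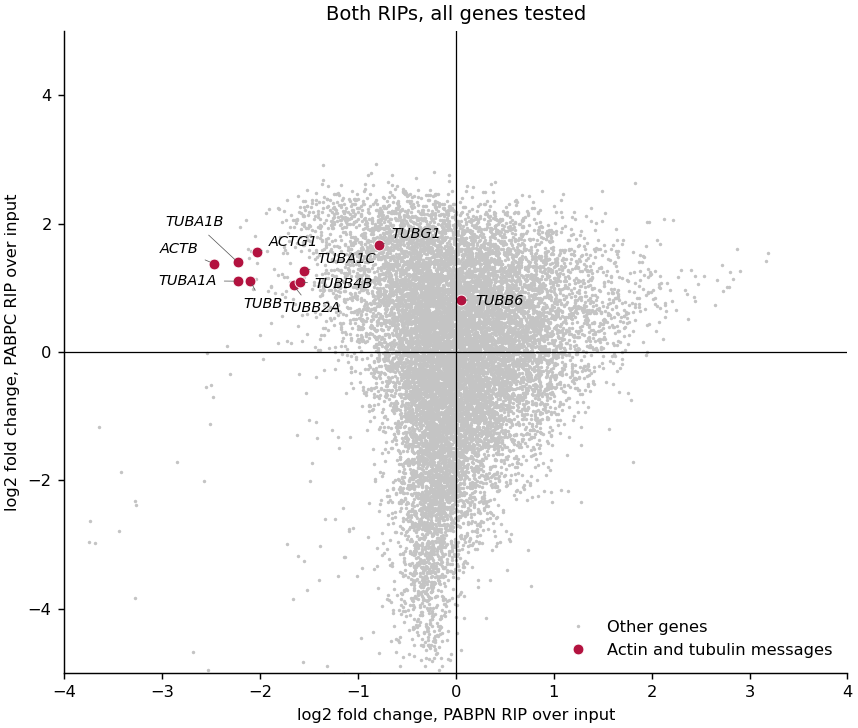
Log2 fold change with PABPN (x axis) and with PABPC (y axis) for all genes that passed the filter in each RIP, the 10 messages in red. Of 14581 genes, 14512 fall inside the axes, and 9 red points lie at the upper left, with TUBB6 just right of the vertical line.

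Among the 12452 protein coding genes, no other had a fold change as low with PABPN and as high with PABPC as ACTB or TUBA1B. The count of genes at or beyond both values was 2 for TUBA1A, 3 for ACTG1, 4 for TUBB, 33 for TUBB2A, 40 for TUBB4B, 48 for TUBA1C, 306 for TUBG1 and 2464 for TUBB6. Members were counted too, and the 2 beyond TUBA1A were ACTB and TUBA1B. The nearest coding genes outside the members, by distance in the plane of the 2 log2 fold changes, were EEF2, SLC25A5 and GAPDH for ACTB and GAPDH, SLC25A5 and UBB for ACTG1. They were EEF2, LDHA and GAPDH for TUBA1B, and TUBB2B, CALR and RPN1 for TUBB. GAPDH, a glycolytic enzyme, had a PABPN value of -2.10 (SE 0.149) and a PABPC value of 1.57 (SE 0.127), at a distance of 0.0603 from ACTG1. EEF2, the elongation factor that moves the ribosome along the message, had -2.11 (SE 0.095) and 1.46 (SE 0.22).

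Intron bases and abundance were set beside the fold changes over all coding genes. The members other than TUBB6 have at most 6696 intron bases in the canonical transcript, and 2306 coding genes with both fold changes have no more than that. In this set the median log2 fold change was 0.033 with PABPN and 1.47 with PABPC, and 26.1% were depleted from PABPN while 84.8% were enriched with PABPC. Of the 9 members in the set, 2 were above its median with PABPC, and between 17.6% (TUBG1) and 2.12% (ACTB) of the set had a lower fold change with PABPN. Among the 2920 coding genes with at least 100 RPM in input, whatever their introns, the medians were -0.24 with PABPN and -0.43 with PABPC, and 24% were depleted from PABPN while 23.3% were enriched with PABPC. Where both conditions were asked for, 227 genes with 7 members remained, with medians of -1.20 and 1.64, of which 75.8% were depleted from PABPN and 75.3% enriched with PABPC. Of these 227 genes, 31 had a lower fold change with PABPN than ACTB, the most depleted of the 7 members. For TUBA1C, the least depleted of the 7, this count was 69. Over 12341 coding genes Spearman's rho between intron bases and log2 fold change was -0.768 with PABPC and -0.152 with PABPN, and over the 10 members it was -0.2 and 0.539. Without TUBB6 the rho of the members was 0.1 with PABPC and 0.367 with PABPN, so these values lean on 1 gene among few. These are descriptions across genes of the same libraries, in which reads from introns were counted too, and both cut-offs were set after the values of the members had been seen.

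**Figure D5:**
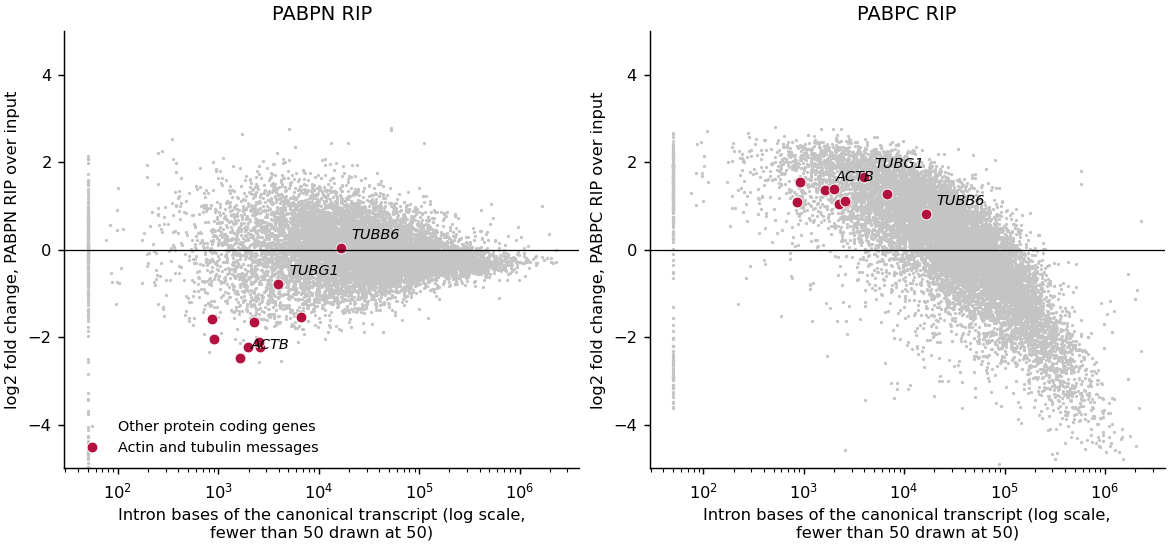
Log2 fold change over input against intron bases of the canonical transcript (log scale) for protein coding genes, with PABPN on the left and PABPC on the right, and the 10 messages in red. With PABPC the genes fall from upper left to lower right and the red points lie among genes with as few intron bases, and with PABPN 8 of the red points lie at the lower edge of the genes.

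Of 14 other tubulins listed, 7 were tested, of which 2 were enriched with and 3 depleted from PABPN, and 3 were enriched with and 1 depleted from PABPC. For this list and those that follow, 17.5% of all genes tested were enriched with and 14.6% depleted from PABPN. With PABPC the shares over all genes were 38.4% and 32.4%. TUBB2B, whose coding sequence matches that of TUBB2A at 98.2% of bases, was close to TUBB, with a PABPN value of -2.05 (SE 0.119) and a PABPC value of 1.14 (SE 0.144). TUBB4A had -1.52 and 0.58, and TUBB3, a beta tubulin best known from neurons, had -0.69 and 1.15. TUBA8 moved the other way, at 0.56 with PABPN and -1.06 with PABPC. TUBG2, the close relative of TUBG1, was enriched with PABPN at 1.15 and had 0.18 (adjusted p = 0.31 by DESeq2) with PABPC. TUBD1 and TUBE1, the delta and epsilon tubulins, passed in neither RIP, at 0.29 and 0.47 with PABPN and -0.22 and -0.20 with PABPC.

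Among the other actins and actin-related proteins, 11 of 16 were tested with PABPN, of which 4 were depleted and 1 enriched, and 13 with PABPC, of which 5 were enriched and 1 depleted. ACTR2 and ACTR3, the actin-related subunits of the Arp2/3 complex, had -1.13 and -0.91 with PABPN and 0.78 and 0.53 with PABPC. ACTR1A, the main subunit of the dynactin filament, had -0.73 and 1.47, and its relative ACTR1B was enriched in both RIPs at 0.79 and 1.13. ACTL6A, a subunit of chromatin remodelling complexes, had -0.83 and 0.77. ACTR3B was not called with PABPN at 0.04 and was depleted from PABPC at -1.92. ACTR6 and ACTR8 had -0.29 and -0.34 with PABPN and 0.37 and 0.46 with PABPC. ACTR5 had 0.16 and -0.02, ACTR10 had -0.02 and 0.25, and the muscle actin ACTA1 had -0.12 and 0.06, none of them called. The muscle actins ACTA2 and ACTC1 passed the filter with PABPC alone, at 0.65 (SE 0.275) and -0.02 (SE 0.331), and were not called.

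Chaperones that fold actin and tubulin were mostly lower with PABPN and higher with PABPC. Of 20 genes 14 were depleted from and 1 enriched with PABPN, and 16 were enriched with and 3 depleted from PABPC. All 3 depleted from PABPC were tubulin cofactors. In the difference 17 were higher with PABPC and 1 with PABPN. The medians were -0.88 with PABPN, 0.94 with PABPC and -1.92 for the difference. The 8 subunits of the CCT ring, which folds both proteins, all fell below the cut-off with PABPN, and CCT7 was lowest at -1.85. TBCC, a tubulin cofactor, was highest with PABPN at 0.91. With PABPC the prefoldin subunit PFDN5 was highest at 2.10 and the tubulin cofactor TBCD lowest at -0.83.

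Of 21 genes for actin monomer binding and the Arp2/3 complex, 12 were depleted from and 1 enriched with PABPN, with a median of -0.59, and 19 were enriched with and 1 depleted from PABPC, with a median of 1.54. CFL1, which encodes the filament-severing protein cofilin, was lowest with PABPN at -1.62, and ARPC5L was highest at 0.97. TMSB10, a thymosin that holds actin monomers, was highest with PABPC at 2.51, and the cyclase-associated protein CAP2 was lowest at -1.89.

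Of 12 genes of the autoregulation pathway itself none was enriched with and 2 were depleted from PABPN, and 5 were enriched with and 3 depleted from PABPC, where 14.6% of all genes were depleted from PABPN, 38.4% enriched with PABPC and 32.4% depleted from it. TTC5, which reads the nascent chain, was not called in either RIP, where its PABPN value was -0.43 (SE 0.0984) and its PABPC value 0.35 (SE 0.103). SCAPER had -0.47 (SE 0.091) with PABPN and was depleted from PABPC at -2.94 (SE 0.0981, adjusted p = 2.49e-195 by DESeq2), the lowest of the list. CNOT11, the subunit of CCR4-NOT to which SCAPER binds, was not called with PABPN at 0.04 and was enriched with PABPC at 1.29. The deadenylase CNOT7 was highest with PABPC at 1.58, CNOT8 was highest with PABPN at 0.26 (adjusted p = 0.07) and CNOT3 lowest at -0.79.

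The gamma-tubulin ring complex and the microtubule-associated proteins were mixed. Of 10 genes of the ring complex 1 was enriched with and 3 depleted from PABPN, and 4 were enriched with and 4 depleted from PABPC. TUBGCP6 and the small subunit MZT1 were the extremes with PABPN at 0.60 and -0.64, and another small subunit, MZT2B, and the scaffold CDK5RAP2 those with PABPC at 1.996 and -1.74. Of 24 microtubule-associated and severing proteins none was enriched with and 6 were depleted from PABPN, with MAP1A lowest at -0.81 and VASH1 highest at 0.35, which was not called. With PABPC 10 were enriched and 6 depleted, from STMN1, which encodes the tubulin-binding protein stathmin, at 1.87 to MAP2 at -1.79. Over all genes tested, 38.4% were enriched with and 32.4% depleted from PABPC, and 17.5% and 14.6% with PABPN.

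Of 62 pseudogenes of actin and tubulin genes in the tables, 2 passed the filter. ACTG1P17 was enriched with PABPN at 1.23 (SE 0.207) and was not called with PABPC at -0.42 (SE 0.214). TUBBP5 was not called in either RIP, at 0.37 (SE 0.138) and 0.11 (SE 0.111). TUBBP5 held exact copies of 8 windows of TUBB4B and none of TUBB, whose copies lay chiefly in TUBBP1 (213 windows). TUBBP1 did not pass the filter, and had -2.01 (SE 0.484) with PABPN and 0.86 (SE 0.345) with PABPC. Of the 2 that passed, ACTG1P17 did not move as ACTG1 did, nor TUBBP5 as TUBB4B did. The cell line markers KRT8, KRT18 and VIM, by contrast, were depleted from PABPN at -0.97, -1.59 and -1.92 and enriched with PABPC at 1.15, 1.57 and 0.95.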

How the data were processed

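Reads of 3 input, 3 PABPN RIP and 3 PABPC RIP libraries of HEK293T cells were aligned by the authors to the hg38 primary assembly with STAR. They were counted per gene, introns and exons together, with featureCounts 2.0.2 on an annotation derived from GENCODE without stretches shared by overlapping genes, and each RIP was compared with input in DESeq2. baseMean, a signal in the authors' tables, averages counts over size factors across 6 libraries. The deposited log2 columns are the fold change and its standard error. The deposited score is the Wald statistic, and the deposited p-value columns hold the Wald p and its Benjamini-Hochberg adjusted value. The fold changes and p-values given here are those of the authors' comparison columns. How reads with several matches were treated and whether strand was used in counting is not given in the sources used here.

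The difference between RIPs was tested by a two-sided normal test of the fold changes, PABPN minus PABPC, with their standard errors added in quadrature and Benjamini-Hochberg adjustment over 14581 genes. Pairs of members were tested likewise within each RIP over 90 pairs. The reads of each library were recovered from baseMean: size factors came from genes with 1 read in 1 library, and for each gene the whole numbers were sought that gave both means to the printed digits and both fold changes within 1e-06. This worked for 14537 of 14581 genes (99.7%). For ACTB, ACTG1, TUBB and TUBA1B, 3279, 3943, 1112 and 77 sets of reads gave the means, and the set nearest to the fold changes was taken. The next set was 3844 times farther for TUBB and 17475 times for TUBA1B, but 11.3 and 20.5 times for ACTB and ACTG1, and when reads were simulated for these 2 genes the nearest set was not the right one. For simulated TUBB the nearest set was right but not far enough from the next to be accepted. Ranges over all sets are given for these 4 genes. The other 6 members had 1 set. Recovered reads per library were 35785884 to 47194535.

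Groups were taken from the sample titles. The p-values of the authors measure the spread between 3 biological replicates per group, with the libraries treated as unmatched. By the study's account, however, 1 lysate was divided between both RIPs. The test of the difference between RIPs adds both errors as if independent, although both fold changes share the 3 input libraries. The members and gene lists were chosen with earlier results of these data known, and TUBBP1 was named after its values were seen. Named genes were the members, all genes of the lists of other tubulins and other actins that passed the filter in both tables (ACTA2 and ACTC1, which passed it in 1, were named after their values were seen), the highest and lowest gene of each other list in each RIP, TTC5, SCAPER and CNOT11, tested pseudogenes, and the 3 coding genes nearest to ACTB, ACTG1, TUBA1B and TUBB. Alternatives were other cut-offs, filters and centrings, the shared input variance taken out, and, chosen after seeing the data, RPM scaling and limma 3.58.1 (voom) on the recovered reads with each library left out in turn. Tests across genes were tested on simulated data. Sequences and coordinates are from GENCODE release 44 on hg38, and exact copies of 75-base windows were sought on both strands of the hg38 sequences without alternate loci and in transcripts of genes that do not overlap the member, so windows across splice junctions were not compared between TUBA1A and TUBA1C, whose annotated genes overlap.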

Additional observations from a re-analysis of the deposited data

How the results depend on the processing

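The number of messages depleted from PABPN stayed at 8 or 9 over 18 alternatives, the number enriched with PABPC at 8 to 10 over 18, and the number higher with PABPC in the difference at 9 or 10 over 15. Of 510 values of single messages under these alternatives, 494 kept direction and call. TUBG1 lost its call with PABPN at a cut-off of 1 and in a test that the change exceeds 0.5, TUBB6 lost its call with PABPC under both and TUBB4B under the latter. TUBB6 also lost its difference at a cut-off of 1 and on the RPM scale, where it was -0.41. The fold change of TUBB6 with PABPN, not called in any alternative, changed sign to -0.043 in limma voom on the recovered reads and lay between -0.0933 and 0.0032 with each library left out (without an input library -0.0875, -0.0466 and 0.0032, without a PABPN library -0.0933, -0.0712 and -0.0376, and without a PABPC library -0.0127, -0.00871 and -0.00902). In limma voom 9 messages were lower with PABPN and 10 higher with PABPC than input, also without any 1 library. Leaving out 1 library moved the PABPN value of ACTB between -2.71 and -2.44 and that of TUBB4B between -1.90 and -1.51. The causes of these changes were not tested. No paired analysis was possible because the tables carry no replicate number for a library. Tests that need count columns were not run. Library values of ACTB, ACTG1, TUBB and TUBA1B, and what rests on them in limma voom, depend on a choice among sets of reads, and counts of genes with close copies are limited by the 75 nt reads. No library stood apart by a rule, since groups of 3 are too small for one.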
